A study of Mus musculus with 16 samples.

Results

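The lining cells of blood and lymph vessels were followed through 10 marker genes in the terminal ileum of 16 mice. These were found by their Ensembl IDs among the 21965 genes of the count table, and all 10 passed the filter on low counts that left 13811 genes for testing. Of the 10, 6 mark mainly blood endothelium (*Pecam1*, *Cdh5*, *Kdr*, *Flt1*, *Plvap* and *Vwf*), 3 mark mainly lymph endothelium, which includes the lacteals of the villi (*Lyve1*, *Prox1* and *Flt4*), and *Madcam1* encodes the addressin of gut venules.

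The mice were young adult males on a C57BL/6 background, either wild type (WT) or *fat-1* heterozygotes, which the labels give as Fat1+/-. The *fat-1* transgene encodes a nematode desaturase that makes n3 from n6 polyunsaturated fatty acids in all tissues, and it is not the mouse cadherin gene *Fat1*. All mice received a liquid diet, which for the EtOH mice was brought up stepwise to 6% ethanol (v/v) and held there for 3 weeks, whereas the pair-fed (PF) mice received the same calories with maltose dextrin in place of ethanol. The PF mice comprised 4 WT and 4 fat-1 animals and the EtOH mice 3 WT and 5 fat-1 animals, each with a library of its own, and the library totals ran from 8422645 to 11438539 counts. The transgene has no row in the mouse count table, so the genotype labels were not checked here. Libraries numbered in sequence held all PF mice first and all EtOH mice after them, so that library order and diet cannot be told apart.

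Endothelial cells line every vessel, and their growth and survival depend on the VEGF ligands and their tyrosine kinase receptors: *Kdr* (VEGFR2) carries the main growth signal in blood vessels, *Flt1* (VEGFR1) binds VEGF-A tightly and restrains that signal, and *Flt4* (VEGFR3) receives VEGF-C in lymph vessels. In the gut the capillaries under the epithelium are fenestrated, and PLVAP forms the diaphragms of their openings. The lacteals take up dietary fat, and PROX1 is the transcription factor that sets and keeps lymph endothelial identity. In whole tissue a lower level of such a gene can come from fewer endothelial cells or from less RNA per cell. Because levels are relative to the whole library, it can also come from more RNA of other cells. These cannot be told apart here.

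The promoters of 3 of these genes are shown because each stands for 1 of the classes: *Kdr* for blood endothelium, *Prox1* for lymph endothelium, and *Madcam1* for the addressin of gut venules. RefSeq promoter windows of GRCm38.p6, from 250 bases before to 50 bases after a start site, were matched for 5 of the 10 genes (*Kdr*, *Flt1*, *Prox1*, *Flt4* and *Madcam1*). Capitals mark matches on either strand to an ETS motif (CAGGAA or CCGGAA), a GC box (GGGCGG) or the kappa-B motif.
*Kdr* (chr5:75978406-75978705, minus strand): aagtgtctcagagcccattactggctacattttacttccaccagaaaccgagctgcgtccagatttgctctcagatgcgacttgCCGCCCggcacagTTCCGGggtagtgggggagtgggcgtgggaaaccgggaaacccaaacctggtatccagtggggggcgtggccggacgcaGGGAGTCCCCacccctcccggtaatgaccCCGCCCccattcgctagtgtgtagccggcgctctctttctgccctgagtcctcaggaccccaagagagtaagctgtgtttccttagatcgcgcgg
*Prox1* (chr1:190170778-190171077, minus strand): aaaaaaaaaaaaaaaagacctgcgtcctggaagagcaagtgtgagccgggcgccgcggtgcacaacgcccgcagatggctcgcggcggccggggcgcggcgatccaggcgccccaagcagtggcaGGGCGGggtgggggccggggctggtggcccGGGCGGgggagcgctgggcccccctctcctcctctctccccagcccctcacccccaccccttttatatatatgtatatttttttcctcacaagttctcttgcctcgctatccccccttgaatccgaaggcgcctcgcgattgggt
*Madcam1* (chr10:79664309-79664608, plus strand): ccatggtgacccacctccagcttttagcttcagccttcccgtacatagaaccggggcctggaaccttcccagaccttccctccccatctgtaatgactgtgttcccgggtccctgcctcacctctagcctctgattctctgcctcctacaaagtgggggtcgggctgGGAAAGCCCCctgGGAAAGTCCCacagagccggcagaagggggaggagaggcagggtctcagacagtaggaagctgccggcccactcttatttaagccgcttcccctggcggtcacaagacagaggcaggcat
The *Kdr* window held 1 match to CCGGAA, 2 GC boxes and 1 kappa-B match, and none of these matches overlapped another. The *Prox1* window held 2 GC boxes. The *Madcam1* window held no GC box and 2 kappa-B matches, which began 83 and 70 bases before the start site. *Flt1* held 3 GC boxes and 1 kappa-B match, *Flt4* held 3 GC boxes, and a second *Prox1* window held 1 GC box. Among all 32851 promoter windows, CAGGAA was present in 30.6%, CCGGAA in 14.9%, the GC box in 35.7% and the kappa-B motif in 4.51%. These matches are descriptions of the letters in the windows and say nothing of binding.

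Levels between mice were compared as CPM, the counts of a gene relative to its TMM-scaled library, and levels between genes as RPKM, which is CPM per kilobase of exon. *Plvap* had the highest level per length in the ileum, with a median of 12.5 RPKM over the 16 mice and a range of 3.37 to 34.2. *Lyve1*, a hyaluronan receptor of lymph endothelium that some tissue macrophages also carry, followed at 4.03 RPKM. *Pecam1*, the adhesion molecule CD31 of all endothelium and of many leukocytes and platelets, had a median of 2.76 RPKM. *Madcam1* and *Cdh5*, the cadherin of endothelial junctions, had medians of 1.56 and 1.49 RPKM. *Kdr* stood at 1.14 RPKM and *Flt1* at 0.644, and *Kdr* was above *Flt1* in 16 of 16 mice. *Prox1*, *Flt4* and *Vwf* were lowest, with medians of 0.488, 0.484 and 0.452 RPKM. In this order *Lyve1* was above *Pecam1* in 16 of 16 mice and *Plvap* above *Lyve1* in 15 of 16, whereas the 6 neighbouring pairs other than these and *Kdr* with *Flt1* changed places in 4 to 7 of the 16 mice. The counts behind these levels were modest: the lowest library held 6 counts for *Madcam1*, 16 for *Prox1* and 21 for *Flt4*, against 75 for *Plvap* and 77 for *Pecam1*.

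**Figure D1:**
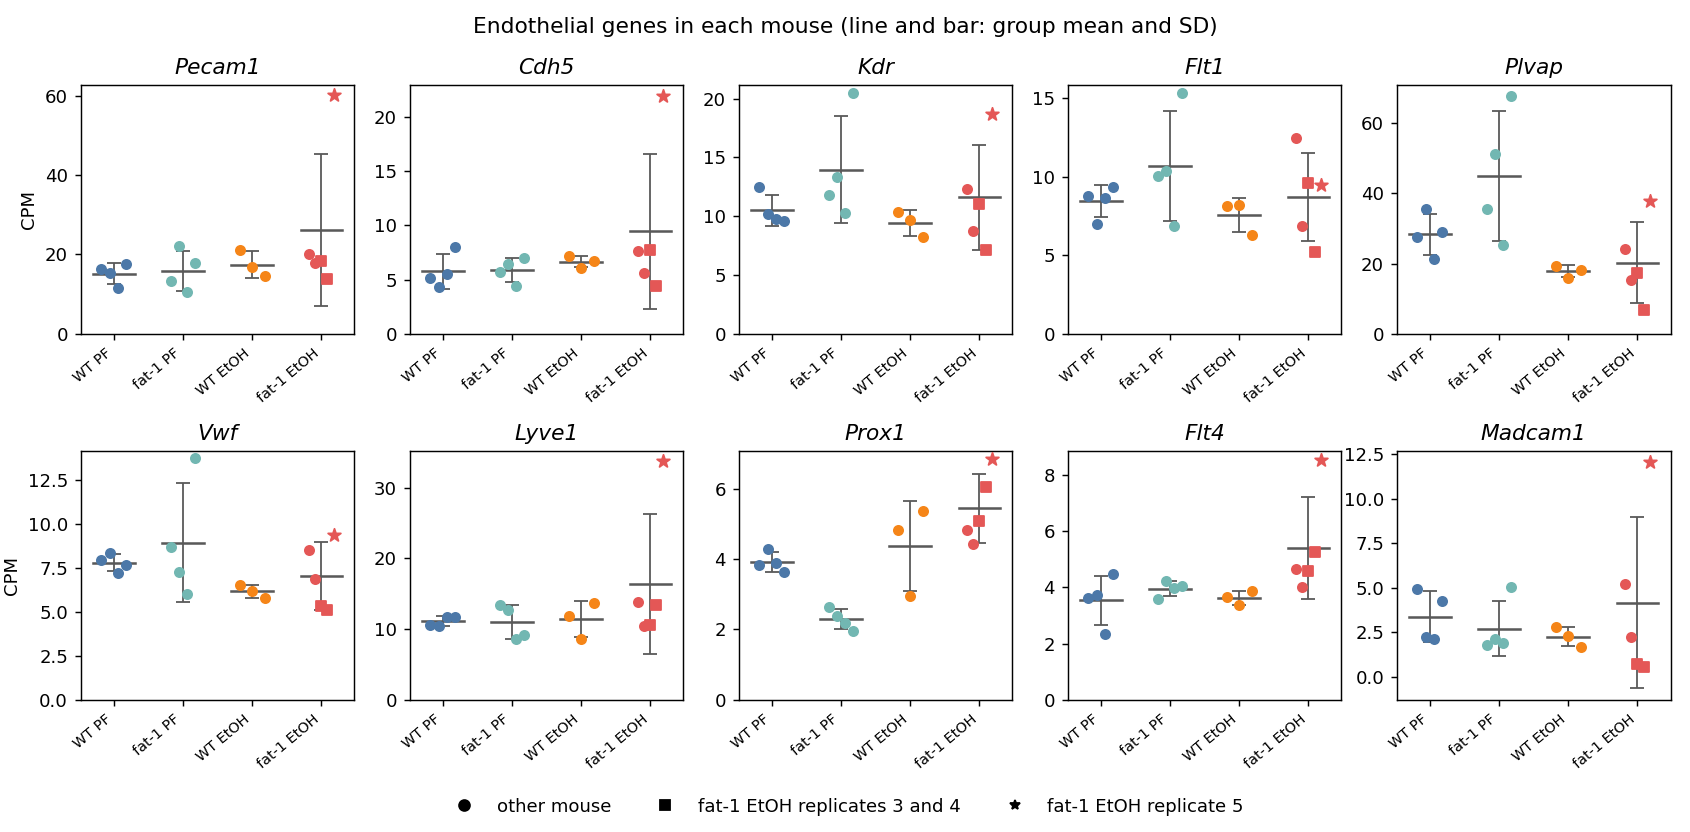
CPM of the 10 endothelial genes in each mouse by group, with 1 point per mouse and a line and bar for the group mean and SD. The *Prox1* points of the fat-1 PF mice lie between 1.96 and 2.65 CPM, below those of the 5 fat-1 EtOH mice at 4.42 to 6.84, and the star of fat-1 EtOH replicate 5 is the highest point for 6 genes.

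EtOH was compared with PF within each genotype. In WT mice none of the 10 genes passed an adjusted p of 0.05 in edgeR's quasi-likelihood test, in a comparison that called 0.0796% of the tested genes, and none had an unadjusted p under 0.05, which 14.1% of the tested genes had. DESeq2 and limma voom also called none of the 10 there, whereas a fit of only the WT mice called *Plvap*. In fat-1 mice 2 of the 10 passed, against 37.4% of all tested genes: *Prox1* rose, as did 18.7% of the tested genes, and *Plvap* fell, as did 18.8%. Averaged over both genotypes *Prox1* and *Plvap* again passed, against 35.9% of all tested genes. In neither comparison was the share of endothelial genes called larger than that of all genes.

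*Plvap* was lower in EtOH than in PF mice. Its level was 27.6, 35.4, 21.3 and 28.9 CPM in the WT PF mice and 35.5, 51.1, 25.4 and 67.9 CPM in the fat-1 PF mice. It was 19.4, 15.96 and 18.1 CPM in the WT EtOH mice and 24.2, 15.3, 17.3, 6.69 and 37.8 CPM in the fat-1 EtOH mice. All WT EtOH mice were below all WT PF mice, while in the fat-1 mice replicate 5 of the EtOH group lay above 2 of the 4 PF mice. The log2 fold change was -1.15 (SE 0.38) in fat-1 mice, with an edgeR adjusted p of 0.0272, and -0.67 (SE 0.44) in WT mice, with an adjusted p of 0.505. Over both genotypes it was -0.91 (SE 0.29), with an edgeR adjusted p of 0.0256. The decrease in the 2 genotypes was not shown to differ, since the interaction had a log2 value of -0.48 (SE 0.57) and an edgeR adjusted p of 0.770. Between genotypes *Plvap* averaged 44.97 ± 18.6 CPM in fat-1 PF mice (SD, n = 4) and 28.3 ± 5.78 CPM in WT PF mice (SD, n = 4), and this difference of 0.67 on the log2 scale had an edgeR adjusted p of 0.516.

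The call of *Plvap* depended on single mice and on the fit. A fit of only the groups compared gave -1.13 in fat-1 mice, with an edgeR adjusted p of 0.0978, and -0.65 in WT mice, with an edgeR adjusted p of 0.0378, so that the call moved from fat-1 to WT mice. In fat-1 mice it was also lost without fat-1 PF replicate 2, fat-1 PF replicate 4, fat-1 EtOH replicate 2 or fat-1 EtOH replicate 3, with edgeR adjusted p values of 0.0687, 0.106, 0.0526 and 0.0578. The log2 fold changes without these mice were -1.07, -0.87, -1.06 and -1.09, against -1.15 with all mice. Fat-1 EtOH replicates 3 and 4 also held genes typical of the large intestine: the 9 listed genes, among them *Car1* and *Aqp8*, summed to 14337 and 15463 CPM there and to 6327 CPM in WT EtOH replicate 2, against 550 to 1438 CPM in the other 13 mice. Without replicates 3 and 4 the log2 fold change of *Plvap* in fat-1 mice was -0.77, with an edgeR adjusted p of 0.0852. Over both genotypes the call was lost without WT PF replicate 2, fat-1 PF replicate 4, WT EtOH replicate 2 or WT EtOH replicate 3, with edgeR adjusted p values of 0.0550, 0.0583, 0.0579 and 0.0542. The log2 fold changes were then -0.84, -0.76, -0.87 and -0.92, against -0.91.

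The other blood endothelial genes did not pass the test. *Kdr* lay between 9.56 and 12.5 CPM in WT PF mice, 10.3 and 20.5 in fat-1 PF mice, 8.23 and 10.4 in WT EtOH mice and 7.14 and 18.7 in fat-1 EtOH mice. Its log2 fold change of EtOH over PF was -0.16 (SE 0.29) in WT and -0.27 (SE 0.25) in fat-1 mice. *Flt1* gave -0.16 (SE 0.28) and -0.29 (SE 0.25) in the same comparisons, with all groups overlapping. *Vwf*, which encodes the clotting factor stored in endothelial cells, had log2 fold changes of -0.34 (SE 0.27) in WT and -0.34 (SE 0.23) in fat-1 mice. In WT mice its levels did not overlap, at 7.98, 8.38, 7.22 and 7.69 CPM in PF mice against 6.54, 6.19 and 5.80 CPM in EtOH mice, although the edgeR adjusted p was 0.586. *Plvap* and *Vwf* were thus the 2 genes of the 10 that were lower without overlap in WT EtOH mice, where 12.1% of all tested genes were. *Pecam1* had positive log2 fold changes of 0.20 (SE 0.43) in WT and 0.71 (SE 0.38) in fat-1 mice, and *Cdh5* of 0.21 (SE 0.44) and 0.68 (SE 0.39). The edgeR adjusted p values in fat-1 mice were 0.150 for *Pecam1* and 0.175 for *Cdh5*. These fat-1 values rested on 1 mouse, since without fat-1 EtOH replicate 5 they were 0.16 for *Pecam1* and 0.12 for *Cdh5*. Without replicates 3 and 4 instead, *Pecam1* rose by 1.07 on the log2 scale, with an edgeR adjusted p of 0.0456, which became 0.0582 when WT EtOH replicate 2 was left out as well.

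**Figure D2:**
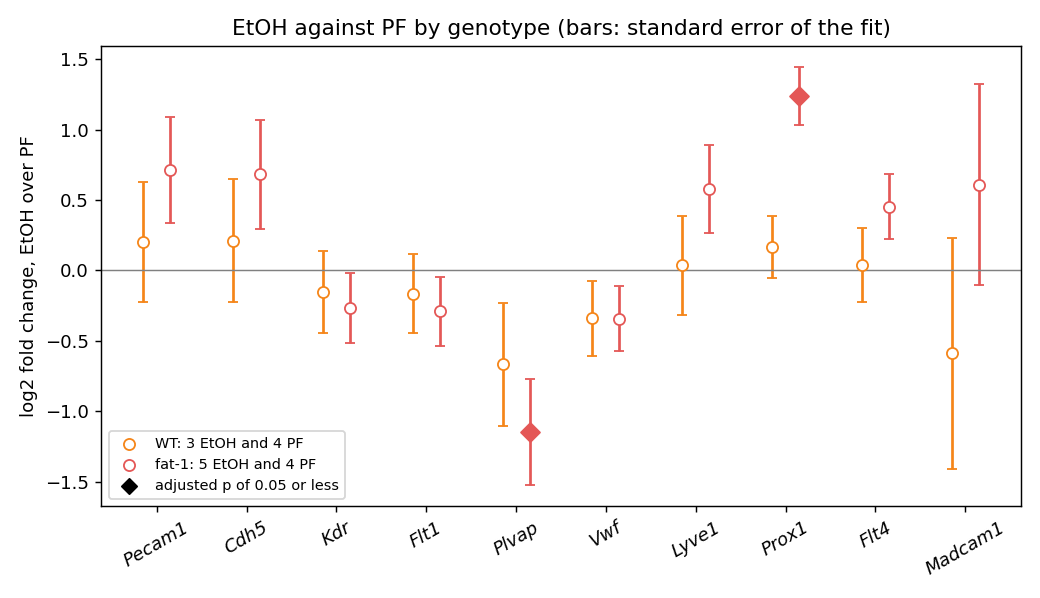
Log2 fold change of EtOH over PF for the 10 genes in WT mice (3 EtOH and 4 PF) and fat-1 mice (5 EtOH and 4 PF), with bars for the standard error of the fit. The filled diamonds are the calls, *Prox1* at 1.24 and *Plvap* at -1.15 in fat-1 mice, and *Kdr*, *Flt1*, *Plvap* and *Vwf* lie below 0 in both genotypes.

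Among the lymph endothelial genes, *Prox1* changed. Its level was 3.83, 4.30, 3.89 and 3.64 CPM in WT PF mice and 2.65, 2.39, 2.19 and 1.96 CPM in fat-1 PF mice. It was 4.83, 2.94 and 5.38 CPM in WT EtOH mice and 4.85, 4.42, 5.08, 6.07 and 6.84 CPM in fat-1 EtOH mice. The fat-1 PF mice were below every other mouse, and the fat-1 PF and fat-1 EtOH mice did not overlap; 10.6% of all tested genes were higher without overlap in that comparison. The log2 fold change was 1.24 (SE 0.21) in fat-1 mice, with an edgeR adjusted p of 0.000659, and 0.17 (SE 0.22) in WT mice, with an adjusted p of 0.770. Over both genotypes it was 0.70 (SE 0.15), with an edgeR adjusted p of 0.00297. In fat-1 mice the call held in 26 of 26 alternative analyses, with log2 fold changes from 1.14 to 1.39, and it was as large without fat-1 EtOH replicates 3 and 4 (1.24) and nearly so without replicate 5 (1.16).

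In the PF mice *Prox1* was lower in fat-1 than in WT mice without overlap, at 2.30 ± 0.292 CPM (SD, n = 4) against 3.91 ± 0.280 CPM (SD, n = 4), where 2.62% of all tested genes were lower without overlap. This log2 difference of -0.76 (SE 0.22) had an unadjusted p of 0.00308 and an adjusted p of 0.187 in edgeR, so it did not pass. None of the 13811 genes did (0.0%), while 12.7% had an unadjusted p under 0.05, and DESeq2 called 179 genes there, none of them among the 10, but gave *Prox1* no adjusted p. The difference between the genotypes in the response of *Prox1* to EtOH, 1.07 on the log2 scale (SE 0.30), had an unadjusted p of 0.00296 and an adjusted p of 0.595 in edgeR. It shares the fat-1 PF mice with both other comparisons of *Prox1*. None of the tested genes passed for this interaction (0.0%), and 8.26% had an unadjusted p under 0.05.

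*Prox1* is not made by lymph vessels alone, since enteroendocrine cells of the epithelium also carry it. The 10 enteroendocrine genes that were listed, a list added with the values of *Prox1* known, summed to 238 to 293 CPM under PF and 249 to 311 CPM under EtOH in WT mice, and to 282 to 445 CPM under PF and 214 to 752 CPM under EtOH in fat-1 mice. Over both genotypes *Gcg* rose by 0.83 and *Cck* fell by 2.15 on the log2 scale, and the other 8 did not pass, up to *Tph1* at 0.95. The 2 highest sums were those of fat-1 EtOH replicates 3 and 4, and in the fat-1 EtOH mouse with the highest *Prox1*, replicate 5, the sum was the lowest of all 16 mice. The part of these cells in the *Prox1* result was not tested. *Prox1* also overlaps the exons of *Prox1os* on the opposite strand, and the libraries were stranded but the strand setting of the counting is not given in the sources used here.

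*Lyve1* and *Flt4* did not pass. In WT mice *Lyve1* was 10.4 to 11.8 CPM under PF and 8.61 to 13.7 CPM under EtOH, and in fat-1 mice 8.61 to 13.5 CPM under PF and 10.4 to 33.9 CPM under EtOH. Its log2 fold change of EtOH over PF was 0.04 (SE 0.35) in WT and 0.58 (SE 0.31) in fat-1 mice, and the latter was 0.14 without fat-1 EtOH replicate 5. *Flt4* was 3.61, 3.73, 2.33 and 4.47 CPM in WT PF mice, 3.60, 4.21, 3.96 and 4.05 in fat-1 PF mice, 3.67, 3.36 and 3.87 in WT EtOH mice and 4.66, 4.00, 4.59, 5.26 and 8.55 in fat-1 EtOH mice. All 5 fat-1 EtOH mice were above all 3 WT EtOH mice, as were 1.43% of all tested genes. That log2 difference of 0.57 (SE 0.25) had an unadjusted p of 0.0382 and an adjusted p of 0.757 in edgeR, in a comparison that called 0.00724% of genes and in which 4.86% had an unadjusted p under 0.05. Without replicate 5 it was 0.34. The 10 genes were all higher in fat-1 EtOH than in WT EtOH mice by the sign of the fitted value, as were 56.8% of all tested genes, with log2 values from 0.18 for *Plvap* to 0.88 for *Madcam1*. Without replicate 5 both of these ends turned, to -0.17 and -0.064.

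*Madcam1*, to which the alpha4 beta7 integrin of gut-homing lymphocytes binds, showed no difference between groups that passed the test. Its level was 4.92, 2.26, 2.11 and 4.26 CPM in WT PF mice and 1.80, 2.11, 1.91 and 5.03 CPM in fat-1 PF mice. It was 2.78, 2.31 and 1.68 CPM in WT EtOH mice and 5.23, 2.21, 0.738, 0.535 and 12.1 CPM in fat-1 EtOH mice. The fat-1 EtOH group thus held both the 2 lowest mice and the highest mouse of the series. The log2 fold change of EtOH over PF was -0.59 (SE 0.82) in WT and 0.61 (SE 0.72) in fat-1 mice, and the latter was -0.31 without replicate 5.

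Fat-1 EtOH replicate 5 stood apart for the endothelial genes. It had the highest level of all 16 mice for *Pecam1*, *Cdh5*, *Lyve1*, *Prox1*, *Flt4* and *Madcam1*, 6 of the 10 genes, where 14.8% of all tested genes had their highest level in this mouse. Against the median of the other 15 mice its level was 3.58-fold for *Pecam1* (60.1 against 16.8 CPM), 3.61-fold for *Cdh5* (21.98 against 6.09 CPM), 2.88-fold for *Lyve1* (33.9 against 11.7 CPM), 2.16-fold for *Flt4* and 5.45-fold for *Madcam1*. These 5 were at least 2-fold over the median, as were 8.85% of all tested genes. *Flt1* (1.10-fold), *Vwf* (1.30-fold), *Plvap* (1.56-fold) and *Kdr* (1.83-fold) stayed within the range of the other mice, whose highest values for these 4 genes were those of fat-1 PF replicate 4. All 6 blood endothelial genes were above the median of the other mice in replicate 5. Their sum was the highest of all 16 mice, at 157.6 CPM against 42.3 to 142 CPM. *Pecam1*, which many leukocytes also carry, gave 60.1 CPM of that sum. *Plvap*, *Kdr*, *Flt1* and *Vwf* were each higher in fat-1 PF replicate 4.

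**Figure D3:**
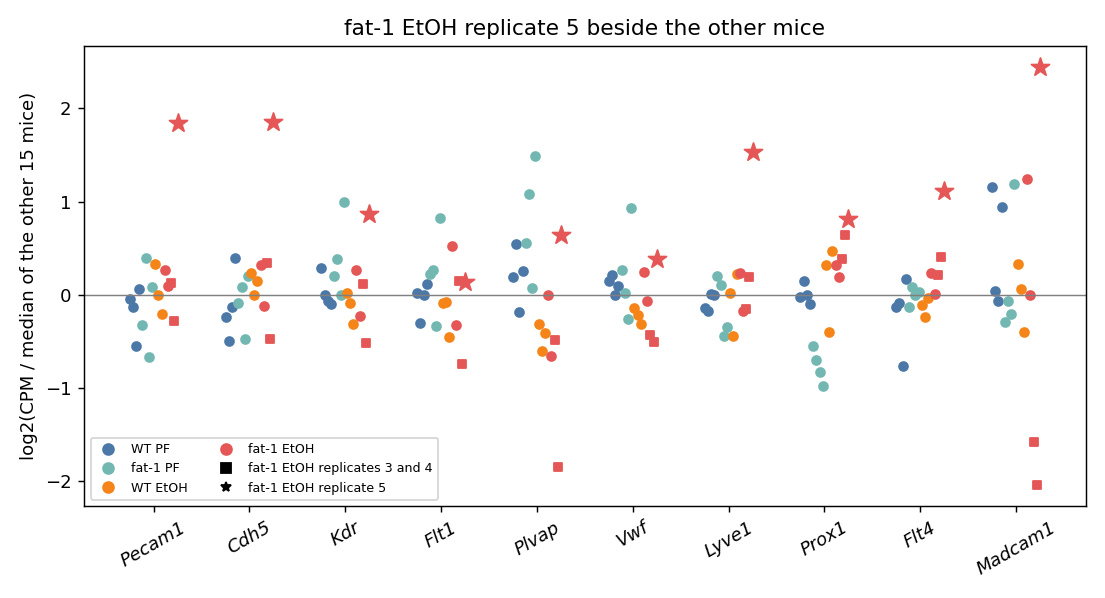
Log2 of CPM over the median of the 15 mice other than fat-1 EtOH replicate 5, with 1 point per mouse for each of the 10 genes. The star of replicate 5 is above every other point for *Pecam1*, *Cdh5*, *Lyve1*, *Prox1*, *Flt4* and *Madcam1* and within the other points for *Kdr*, *Flt1*, *Plvap* and *Vwf*.

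Genes of B-cell follicles, which the terminal ileum holds in its Peyer's patches, also had their highest sum in this mouse. The 6 listed genes (*Ms4a1*, *Cd79a*, *Cr2*, *Fcer2a*, *Cxcr5* and *Cxcl13*) summed to 350.4 CPM in fat-1 EtOH replicate 5 and to 4.19 to 79.9 CPM in the other 15 mice. The sums of fat-1 EtOH replicates 4 and 3, the mice with the lowest *Madcam1*, were 4.19 and 8.61 CPM. Fat-1 PF replicate 2 had a sum nearly as low, 4.63 CPM, with *Madcam1* at 2.11 CPM, and its *Pecam1* level of 22.0 CPM was the highest outside replicate 5. The sum of WT EtOH replicate 3 lay just below that of fat-1 EtOH replicate 3, with *Madcam1* at 1.68 CPM. None of the 6 genes passed for EtOH over both genotypes, with log2 values from 0.29 for *Cd79a* to 1.13 for *Fcer2a*. In fat-1 mice none passed either, but without replicates 3 and 4 *Fcer2a*, *Cxcr5* and *Cxcl13* rose there, with a median over the 6 genes of 2.43. Of all tested genes 14.7% rose in that fit. In replicate 5 the 30 further pan-endothelial and blood endothelial genes listed summed to 2.25 times the median of the other mice (318 CPM against 116 to 192 CPM in the others), and the 10 further lymph endothelial genes to 1.34 times. The macrophage genes summed to 2.10 times the median of the other mice, and the adipocyte genes to 3.44 times. The platelet genes summed to 1.96 times and the fibroblast genes to 1.58 times that median. Each of these sums was the highest of the 16 mice. The red blood cell genes summed to 1.75 times the median, the smooth muscle genes to 1.29, the pericyte genes to 1.09 and the epithelial genes to 0.752. *Pecam1* is carried by leukocytes and *Lyve1* by macrophages, and the part of these cells in the levels of this mouse was not tested.

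**Figure D4:**
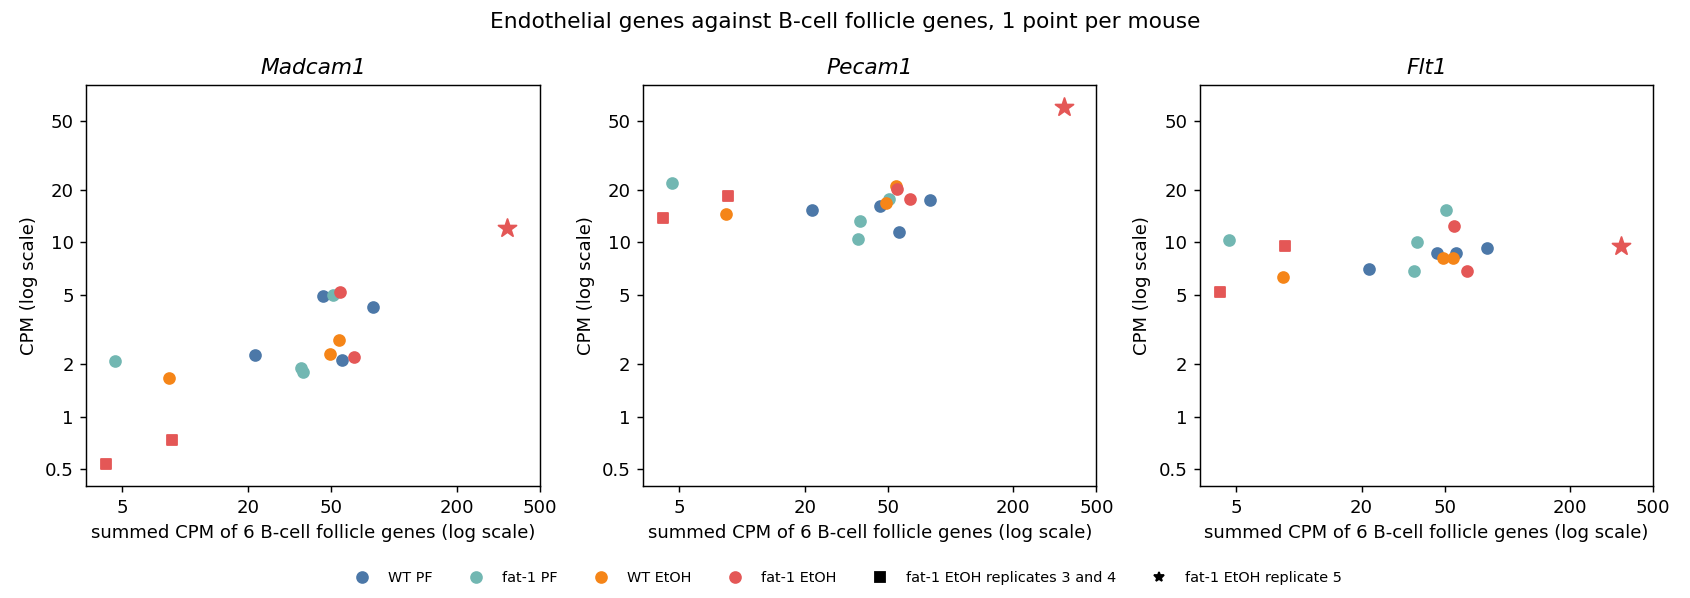
CPM of *Madcam1*, *Pecam1* and *Flt1* against the summed CPM of 6 B-cell follicle genes, both on log scales, with 1 point per mouse. *Madcam1* runs from 0.535 CPM at the lowest sum, 4.19, to 12.1 CPM at the highest, 350.4, whereas *Flt1* at the highest sum is 9.49 CPM, within its range in the other mice. *Pecam1* is 60.1 CPM at the highest sum, and outside that mouse it is highest, at 22.0 CPM, at a sum of 4.63.

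The 10 genes fell into patterns across mice. *Kdr*, *Flt1*, *Plvap* and *Vwf* had pairwise Pearson r of log2 CPM from 0.74 to 0.82 over the 16 mice. These values are given as a description with no p, since the mice span 4 groups and the genes share each library's depth and tissue makeup. *Pecam1* and *Cdh5* had an r of 0.90 over 16 mice and 0.66 without fat-1 EtOH replicate 5. *Pecam1* and *Lyve1* had an r of 0.78, and one of 0.15 without that mouse. *Prox1* and *Plvap*, the genes called in opposite directions between diets, had an r of -0.56, and of -0.73 without that mouse. On deviations from the group means, which take the differences between groups out, their r was 0.08. On the same deviations the pairs among *Kdr*, *Flt1*, *Plvap* and *Vwf* ran from 0.73 to 0.88, and *Pecam1* with *Plvap* had an r of 0.82, against 0.29 on the levels. *Madcam1* had an r of 0.74 with *Vwf*, 0.70 with *Kdr*, 0.62 with *Plvap* and 0.55 with *Flt1* on the levels, and of 0.80, 0.82, 0.79 and 0.61 with the same genes on the deviations. Within each library the log2 ratio of *Plvap* to *Pecam1* CPM averaged 0.90 ± 0.22 under PF and 0.04 ± 0.24 under EtOH in WT mice (SD, n = 4 and n = 3). In fat-1 mice it averaged 1.46 ± 0.33 under PF and -0.35 ± 0.51 under EtOH (SD, n = 4 and n = 5). Every PF mouse, at 0.72 to 1.93, was above every EtOH mouse, at -1.05 to 0.32, a ratio within a library that does not tell which of the 2 genes moved. This pair was singled out of 5 ratios after the values were seen. Over both genotypes together the ratios of *Plvap* to *Kdr*, *Vwf* to *Pecam1*, *Prox1* to *Flt4* and *Lyve1* to *Pecam1* overlapped between PF and EtOH mice. Within a genotype *Plvap* to *Kdr* was lower without overlap under EtOH in fat-1 mice (-0.093 to 1.01 against 1.31 to 1.94). *Vwf* to *Pecam1* was lower without overlap in WT mice (-1.69 to -1.33 against -1.19 to -0.66). *Prox1* to *Flt4* was higher without overlap in fat-1 mice (-0.32 to 0.20 against -1.04 to -0.44). *Plvap* and *Prox1* were themselves called in fat-1 mice. The share of all gene pairs whose ratios separate was not computed, for these ratios or for *Plvap* to *Pecam1*.

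**Figure D5:**
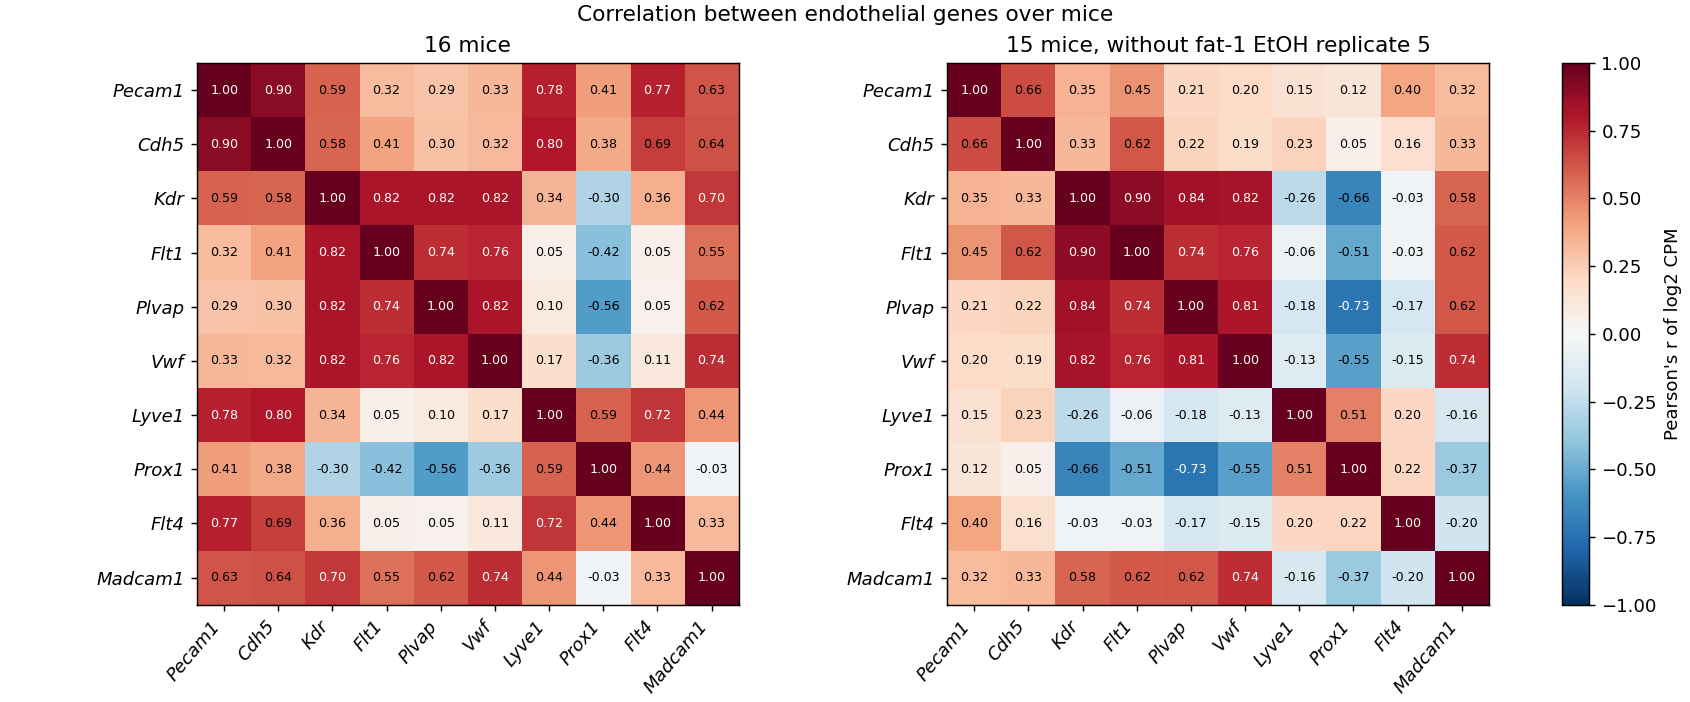
Pearson's r of log2 CPM between the 10 genes over all 16 mice (left) and over 15 mice without fat-1 EtOH replicate 5 (right), on a colour scale from -1 to 1. *Kdr*, *Flt1*, *Plvap* and *Vwf* have r of 0.74 to 0.90 with each other over both panels, *Madcam1* reaches 0.74 with *Vwf* in both, and the r of *Pecam1* with *Lyve1* goes from 0.78 to 0.15.

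The genes whose levels were most like the mean of the 6 blood endothelial genes over the 16 mice were *Eng* (r = 0.92), *Egfl7* (0.92), *Ppp1r16b* (0.91), *Cd68* (0.91) and *Sirpa* (0.89). *Eng* encodes a TGF-beta co-receptor of endothelium and *Egfl7* a factor that endothelium secretes, whereas *Cd68* and *Sirpa* are carried by macrophages. Most like the mean of the 3 lymph endothelial genes were *Serpinb9* (0.91), *Zfp318* (0.89), *Rasa3* (0.89), *Cnn2* (0.88) and *Pde4b* (0.88). Most like *Madcam1* were *Runx3* (0.95), *Arhgap4* (0.94), *Sash3* (0.94), *Vpreb3* (0.94) and *Sipa1* (0.94), of which *Runx3*, *Sash3* and *Vpreb3* are known from lymphocytes. These were the highest r among all tested genes and carry no p. They rested in part on fat-1 EtOH replicate 5. Without it the 5 genes most like the blood mean were *Eng* (0.90), *Sox18* (0.90), *Exoc3l2* (0.89), *Egfl7* (0.87) and *Ppp1r18* (0.86), of which *Sox18* encodes an endothelial transcription factor. All 5 of the lymph mean were replaced, by *Tbc1d25* (0.94), *Klhl4* (0.90), *Unc80* (0.86), *Slf2* (0.85) and *Dguok* (0.83), and those of *Madcam1* became *Sipa1* (0.94), *Arhgap4* (0.93), *Rasal3* (0.92), *Runx3* (0.92) and *Ifi44* (0.92). On deviations from the group means neither *Eng* nor *Egfl7* was among the 5. The blood mean was then most like *Adam19* (0.95), *Slfn5* (0.95), *9930111J21Rik2* (0.94), *Ppp1r16b* (0.93) and *Ifi213* (0.93), and the lymph mean most like *Atp13a2* (0.88), *Ppp1r3f* (0.86), *Ift80* (0.84), *Nrm* (0.84) and *Nde1* (0.83). *Madcam1* was most like *Runx3* (0.95), *Csf2rb* (0.95), *Adar* (0.95), *Tm6sf1* (0.95) and *Themis2* (0.95) on these deviations.

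Other genes of the same cells and pathways gave a mixed picture. Of 30 further pan-endothelial and blood endothelial genes, 29 were tested, and over both genotypes 5 rose, 1 fell and 23 did not pass, with a median log2 fold change of 0.13 against 0.04 over all genes, of which 18.3% rose and 17.6% fell. The 5 that rose were *Clec14a* (1.06), *Adgrl4* (0.60), *Ecscr* (0.59), *Cd34* (0.55) and *Ly6c1* (0.49), and *Aplnr*, the apelin receptor, fell by 0.89. *Cd34* is also made by fibroblasts and other stromal cells. In fat-1 mice 3 rose (*Clec14a*, *Ecscr* and *Cd34*) and *Aplnr* fell. Without fat-1 EtOH replicates 3 and 4 the median over both genotypes was 0.29. In fat-1 mice 7 then rose and none fell, where 14.7% of all tested genes rose and 2183 of 13608 fell. *Icam2*, *Adgrl4*, *Cldn5* and *S1pr1* were added to the 3. Of the fat-1 EtOH mice left in that fit, replicate 5 had a sum of 318 CPM over the 30 genes, against 176 and 140 CPM in replicates 1 and 2. Whether the rises hold without replicate 5 as well was not tested. Of 10 further lymph endothelial genes, 8 were tested, and 3 rose and 5 did not pass, with a median of 0.29: *Nrp2*, a co-receptor for VEGF-C, by 0.94, *Angpt2* by 0.75 and *Pdpn* by 0.50. *Nrp2*, *Angpt2* and *Pdpn* are also made outside lymph vessels. In fat-1 mice 4 of the 8 rose, where 18.7% of all tested genes did, and in WT mice none of the 8 did, where 0.0796% of all genes were called. The 10 genes summed to 110.4 and 97.7 CPM in fat-1 EtOH replicates 3 and 4, the mice with large intestine genes, against 55.9 to 72.2 CPM in the other 3 fat-1 EtOH mice and 41.7 to 53.8 CPM in fat-1 PF mice. Without replicates 3 and 4, *Nrp2* rose by 0.49 and *Angpt2* by 0.77 over both genotypes, and *Pdpn* did not pass, at 0.47 with an edgeR adjusted p of 0.0549. In fat-1 mice 2 of 7 tested genes then rose, against 14.7% of all genes.

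The ligands of the receptors were mixed as well. Of 9 VEGF, angiopoietin and related ligand genes, all tested, 1 rose and 1 fell over both genotypes, where 18.3% of all tested genes rose and 17.6% fell. *Vegfb*, a ligand of FLT1, rose by 0.45 (SE 0.14, edgeR adjusted p of 0.0202), and *Vegfc*, the ligand of FLT4, fell by 0.57 (SE 0.17, edgeR adjusted p of 0.0157). *Vegfa* did not pass there, at -0.26 with an edgeR adjusted p of 0.0764, and in fat-1 mice it fell by 0.58 with an edgeR adjusted p of 0.00662. In fat-1 mice 1 of the 9 genes rose and 2 fell. Without fat-1 EtOH replicates 3 and 4, the mice with large intestine genes, 1 rose and 1 fell there. Over both genotypes 2 then rose and 1 fell. Which ligand genes made up these last counts is not given here. Of 11 genes for the partners of MAdCAM-1 and other homing molecules, 7 were tested and none passed, with log2 values from -0.99 for *Ccl25*, the chemokine of the small intestinal epithelium, to 0.62 for *Itga4*, which encodes the alpha4 integrin chain. Without fat-1 EtOH replicates 3 and 4 *Ccl25* fell by 0.63, with an edgeR adjusted p of 0.000608. In fat-1 mice, where none passed with all libraries, *Itga4* then rose by 1.75, *Vcam1* rose by 1.67 and *Ccl25* fell by 0.78.

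Genes listed for pericytes, smooth muscle and fibroblasts were mostly higher under EtOH. In whole tissue these lists do not tell cells around vessels from those of the rest of the gut wall. Of 6 pericyte genes 4 rose over both genotypes, where 18.3% of all tested genes did, with a median of 0.66, from *Notch3* (0.18, not called) to *Kcnj8* (1.15). All 7 smooth muscle genes rose, with a median of 1.16, from *Smtn* (0.67) to *Cnn1* (1.38), and all 6 fibroblast genes rose, with a median of 0.55, from *Col1a1* (0.45) to *Lum* (0.67) and *Pdgfra* (0.67). In fat-1 mice 4 pericyte, 7 smooth muscle and 5 fibroblast genes rose, where 18.7% of all tested genes did. In WT mice none of these 19 genes passed, although all 19 log2 values were positive, with medians of 0.55, 0.86 and 0.44. Without fat-1 EtOH replicates 3 and 4, 2 pericyte and 5 smooth muscle genes were called higher in WT mice, where 0.72% of all tested genes were. Over both genotypes 4, 7 and 6 genes of the 3 lists were then called higher, against 17.5% of all genes. Smooth muscle genes summed to 1105 to 1486 CPM in WT PF and 2027 to 2678 CPM in WT EtOH mice, without overlap. In fat-1 mice the sums did not overlap either, at 953 to 1401 CPM under PF and 1919 to 4172 CPM under EtOH. *Kcnj8* and *Abcc9* encode a potassium channel that smooth muscle also carries. Of 8 epithelial genes 1 rose and 1 fell, with a median of -0.10, from *Krt20* (-0.66) to *Krt19* (0.44). Of 8 tested large intestine genes 5 rose, from *Ang4* (-0.03) to *Aqp8* (8.53). None of 8 macrophage genes passed, from *Csf1r* (-0.43) to *Cd163* (0.68), and none of 3 platelet genes, from *Gp1bb* (-0.33) to *Itga2b* (0.51), or of 6 adipocyte genes, from *Cidec* (-0.66) to *Plin1* (1.06). Of 5 red blood cell genes 1 fell, *Alas2* by 1.54, and the least negative was *Hbb-bt* at -0.65. The part of tissue makeup in the results of *Prox1* and *Plvap* was not tested.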

How the data were processed

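RNA of the whole terminal ileum of 16 mice was sequenced as poly(A)-selected stranded libraries. The authors aligned the reads to mm10 with tophat2, counted them per gene with htseq and deposited those counts without normalization; the strand setting of the counting is not given in the sources used here. The submitters' processing notes name bcl2fastq, FastQC 0.10.1 and Cufflinks, and the study's cuffdiff2 results were not used here. Symbols and exon lengths were taken from GENCODE M21.

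Counts were tested with edgeR 4.0.16 (R 4.3.3): filterByExpr, TMM scaling, a robust quasi-likelihood fit with 1 mean per group over all 16 libraries, and Benjamini-Hochberg adjustment over 13811 genes with a limit of 0.05. p-values measure the spread between these mice. Log2 CPM for likeness and correlations had a prior count of 2. The method was tested on simulated data. Alternatives were DESeq2 1.42.0, limma 3.58.1 voom with quality weights, other scalings and count filters, a fit of only the groups compared, a replicate block and leaving out mice. No library was identical to another.

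The 10 genes and the lists were chosen with earlier results of these data known, and the enteroendocrine list was added last. A gene was left out of each of 2 lists (B-cell follicle, homing partners) and is not reported here. All 10 genes were named. From most lists the tested genes with the largest and smallest log2 fold change over both genotypes were named. For the endothelial and ligand lists the genes called over both genotypes were named. The smallest value of the further lymph endothelial genes was not named, and the ligands were not named by their extremes. Some genes called only in fits that left out mice with large intestine genes, such as *Vcam1*, were named as well. *Vegfa*, *Gcg* and *Cck* were chosen after their values were seen.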

Additional observations from a re-analysis of the deposited data

Results flagged for a closer look

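In 30 sets of 4 or 5 mice (10 genes in 3 groups), the gap between an extreme mouse and its nearest neighbour was set against the range of the group by Dixon's test, and 5 stood out, where chance gives about 1 in 20. In the fat-1 EtOH group the highest mouse was replicate 5 for *Pecam1* (60.1 CPM), *Cdh5* (21.98 CPM), *Lyve1* (33.9 CPM) and *Flt4* (8.55 CPM), with gaps of 0.864, 0.810, 0.855 and 0.722 of the group's range. These 4 values come from 1 library and are not independent of each other. In the fat-1 PF group the highest mouse for *Madcam1* was replicate 4 (5.03 CPM), with a gap of 0.906 of the range. The B-cell follicle genes summed to 50.9 CPM in that mouse, against 4.63 to 36.7 CPM in the other 3 fat-1 PF mice. The part of any cell type in these values was not tested.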

How the results depend on the processing

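The rise of *Prox1* passed in fat-1 mice in 26 of 26 alternatives and over both genotypes in 25 of 25. The fall of *Plvap* passed in 19 of 26 and 20 of 25. Of the 10 endothelial genes, a fit of only the groups compared called 1 in WT mice (*Plvap*, edgeR adjusted p of 0.0378) and 1 in fat-1 mice, and leaving out fat-1 EtOH replicates 3 and 4 with WT EtOH replicate 2 left 1 in fat-1 mice and 1 over both genotypes. Leaving out 1 mouse at a time gave 1 to 2 called genes in fat-1 mice and 1 to 2 over both genotypes, and 0 to 0 in the other 4 comparisons. The cause of these losses was not tested.

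Some values that did not pass changed sign. For *Madcam1* the replicate block gave -0.47 in fat-1 mice, -0.46 over both genotypes, and -0.27 between EtOH genotypes, and voom weights gave -0.10 over both genotypes. The block gave -0.18 for *Plvap* between EtOH genotypes. Leaving out 1 mouse gave ranges of -0.31 to 1.11 for *Madcam1* in fat-1 mice, -0.45 to 0.26 over both genotypes and -0.064 to 1.15 between EtOH genotypes. It gave -0.17 to 0.39 for *Plvap* between EtOH genotypes and, in WT mice, -0.12 to 0.20 for *Lyve1*, -0.0057 to 0.38 for *Prox1* and -0.11 to 0.17 for *Flt4*. The stricter filter left out *Madcam1*. The replicate numbers did not pair the mice, since same-numbered mice correlated at -0.02 on average (21 pairs) and others at 0.01 (74 pairs), and the block changed no call.

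In WT mice the number of all genes called was 11 and moved most between methods, to 258 by DESeq2, 2853 by voom, 2 with a looser and 0 with a stricter filter, 1103 in a fit of only the groups compared, 18 with the block, 273 without fat-1 EtOH replicates 3 and 4, and 0 to 66 without 1 mouse. In fat-1 mice it was 3086 in a fit of only the groups compared, against 5170. The balance of directions there moved with the method. Upper-quartile scaling called 3906 genes higher and 1753 lower and voom 1494 and 2203, against 2578 and 2592 in the main fit. Between PF genotypes, where the main count was 0, DESeq2 called 179, voom 30 and fits without 1 mouse up to 114, and between EtOH genotypes DESeq2 called 5, against 1. None of these called more than 1 of the 10 genes in WT mice. The lowest counts in a library were 6 for *Madcam1* and 16 for *Prox1*, and the effect of depth was not tested.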
